A study of Mus musculus with 2 samples.

Results

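Striated muscle genes encode the sarcomere, the calcium release machinery, the energy enzymes and the myogenic factors of skeletal muscle and heart. The set examined here holds 48 such genes, taken by name from a list drawn up with earlier results of these data known, and all 48 have at least 1 probe on the array. They are read by 60 of the 55669 probes, and the named part of the array covers 20662 genes. The members were matched through the RefSeq accession that the scanner files give for each probe.

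RNA came from mouse retina at postnatal day 14. The groups are wild-type (WT) retina and retina labelled Mef2d KO, with 1 array each. Age, tissue and protocol are the same for both groups per the labels. The sources used here do not give the strain, the nature of the deleted allele, or the sex and number of the animals. No difference could be checked against a replicate array, so p-values are left out.

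In muscle, thin filaments of actin slide past thick filaments of myosin when calcium binds the troponin complex, and titin, nebulin and the myomesins hold the filaments in register. Transcription factors of the MEF2 family work with MyoD and myogenin to switch these genes on in muscle cells. MEF2D also acts in neurons, photoreceptors among them, where no sarcomere is built. The comparison asks which muscle genes are read in WT retina and which of them are lower on the array labelled Mef2d KO, called the KO-labelled array from here on.

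A level is log2 of the scanner intensity relative to the array's 75th percentile. Levels of different probes cannot be set against each other, since each probe binds with its own strength. A difference is the level on the KO-labelled array minus the level in WT. The ± beside a difference is the scanner software's error for 1 spot on each array, which leaves out the variation between animals. A probe counts as read when at least 50% of its spots are flagged well above background. A gene with several probes is given by its brightest one.

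The label of the KO-labelled array could not be checked on Mef2d itself. Its brighter probe stood at -0.091 in WT and 0.34 on the KO-labelled array, and where both probes lie relative to the deletion is not stated in those sources. The second Mef2d probe differed by 0.14, Mef2a by -0.23 and Mef2b by -0.45. Mef2c was the 1 of 4 MEF2 genes past 2-fold, with a difference of -1.28 ± 0.23, or -0.72 with normexp background. The arrays also differed in Xist, which marks the inactive X chromosome of female cells. It was at least 52.6-fold higher on the KO-labelled array, with the WT probe not well above background, while the Y-linked Eif2s3y was read on both (levels 2.66 and 2.30). Genotype and the sex make-up of the animals therefore cannot be told apart. Photoreceptor genes mark the tissue as retina on both arrays. All 10 listed ones were read on both and stayed within 2-fold, Crx, a photoreceptor transcription factor gene, with a difference of 0.028 ± 0.20. Of all 16187 named genes read on both arrays, 15805 were within 2-fold.

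Most of the muscle genes gave a signal in WT retina. Of the 48, 41 (85.4%) were well above background in WT, and 38 were on the KO-labelled array. The shares over all 20662 named genes were 82.9% and 79.1%. Of the 48 genes, 37 were read on both arrays, 4 in WT only (Apobec2, Mb, Mylpf and Myoz1) and 1 (Myh1) on the KO-labelled array only. The other 6 were read on neither. They are Ckm, the muscle creatine kinase, the myogenic factor genes Myod1 and Myog, the fast myosin genes Myh2 and Myh4, and Myoz2. Over all 20662 named genes, 922 were read in WT only, 137 on the KO-labelled array only and 3405 on neither.

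Of the 37 members measured on both, 7 (18.9%) stood lower on the KO-labelled array by 2-fold or more, and none stood higher by that much. Since the list was drawn up with earlier results in view, this share describes the members and is not independent evidence of their direction. The 7 are Tecrl, Srpk3, Tnnt1, Pygm, Myom1, Tnni1 and Ttn. Over all 16187 named genes that both arrays read, the lower share was 1.74% and the higher share 0.618%. Lower genes thus made up 73.8% of the array's 2-fold differences, and 53.1% with median scaling, 51.2% after quantile normalization, 51.4% after cyclic loess and 62.8% with normexp background. Apobec2 was lower as well, by a bound. A negative difference of any size was seen in 30 of the 37 members, against 51.3% of all named genes. In bulk tissue, fewer cells of a type and less RNA per cell cannot be told apart.

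The lower genes differ in brightness, and that bears on how firmly each can be read. Over genes with a mean level above -3 on the 2 arrays, 3 of the 15 members were at least 2-fold lower (Tnnt1, Pygm and Srpk3), against 0.892% of 13116 named genes. At or below that level 4 of 22 members were 2-fold lower, against 5.37% of 3071 genes. Dim genes leaned the same way whatever their list: 72.7% of all named genes at or below -3 had a negative difference, against 18 of the 22 dim members. The median difference of the 37 members was -0.21, and that of all named genes was -0.0061. Median scaling shifted every gene upward alike, to a median of -0.033 for the members and 0.17 for all genes. Tecrl, Srpk3, Tnnt1, Pygm and Myom1 were at least 2-fold lower under every scaling and background run.

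**Figure D1:**
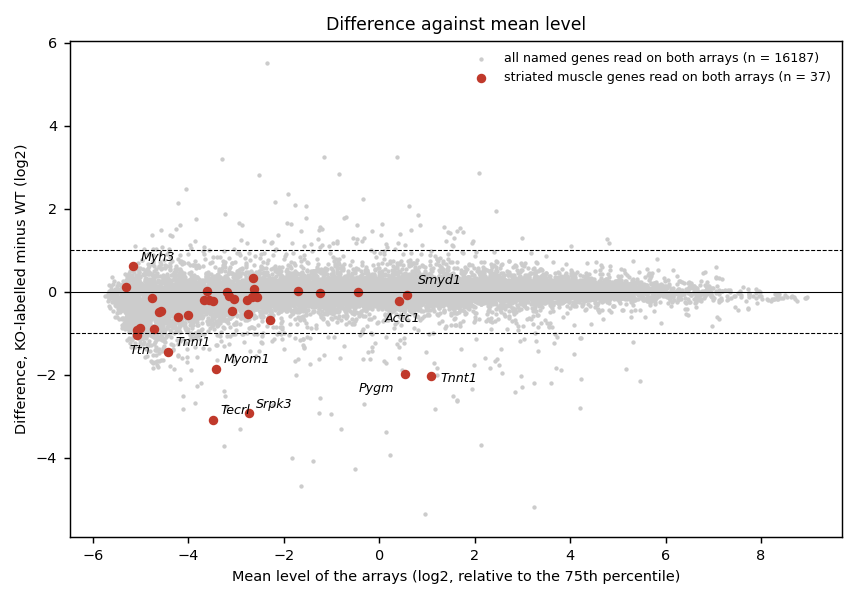
Difference between the KO-labelled and the WT array (log2) against the mean level of the 2 arrays, for 16187 named genes (grey) and 37 striated muscle genes (red) read on both. Dashed lines mark 2-fold. Tecrl, Srpk3, Tnnt1, Pygm and Myom1 lie well below the grey cloud, while Tnni1 and Ttn lie at its dim lower edge.

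Srpk3 encodes a serine-arginine protein kinase of muscle whose gene is a known MEF2 target there. Its scanner intensity was 335 in WT and 46.8 on the KO-labelled array, which gives levels of -1.27 and -4.20. The difference was -2.93 ± 0.22, or 7.60-fold lower, and it stood at rank 15 from the lowest of 16187 genes. With normexp background it was -2.005. Srpk3 lies on the X chromosome, between Plxnb3 (-0.59) and Idh3g (9.33e-05).

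Tecrl encodes an enoyl-CoA reductase-like protein of heart and muscle. The array carries its probe in 10 copies, so the spread within an array is known. In WT the 10 spots ran from -2.11 to -1.84 with a median of -1.92. On the KO-labelled array they ran from -5.64 to -4.22 with a median of -5.09, and all 10 spots of each array were well above background. The lowest WT spot was above the highest spot of the other array. The mean difference was -3.08 with an SD of 0.35 between spot pairs, or 8.46-fold lower (rank 13), and -1.67 with normexp background.

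Apobec2 encodes a member of the APOBEC deaminase family found in heart and skeletal muscle. Its intensity was 154 in WT and 3.998 on the KO-labelled array, where the spot was not well above background. It was therefore at least 11.1-fold lower, the WT value being set against the lowest probe well above background on the other array. With normexp background the difference was -1.91, which is less than that bound. The other 3 genes read in WT only have bounds under 2-fold. Mb, the gene of myoglobin, had levels of -5.21 and -6.92, at least 1.58-fold lower. Mylpf, a fast myosin light chain, had -5.50 and -8.05, at least 1.29-fold lower, and Myoz1, a Z-disc protein, had -5.35 and -5.71, at least 1.28-fold lower. Of the 922 named genes read in WT only, 19% had a bound of at least 2-fold.

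Upstream sequence was examined because the factor named by the label binds DNA at a known motif. RefSeq windows of 300 bases (GRCm38.p6, 250 before to 50 after a start site) were at hand for 40 members in 47 windows. Actn3, Myod1, Myom2, Myoz1, Neb, Tcap, Tnni2 and Tnnt3 had no entry. The windows were searched on both strands for the MEF2 consensus, the CArG box of serum response factor, and TATAAA. They were also searched for the myogenic E-box CAGCTG and for TAATCC, a site of the photoreceptor factor CRX. MEF2 consensus matches can contain TATAAA, as those of Srpk3 and Myh8 do. A match describes letters only, and the start site used in retina may be another one.

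A MEF2 consensus match lay in 8 of the 47 member windows (17%), against 3.19% of all 32851 windows. The 8 genes are Srpk3, Tecrl and Ttn, which were lower, Casq2 and Myh8, which were within 2-fold, and Myh1, Myh4 and Myoz2, which were not read on both arrays. Among members read on both arrays and with a window, 3 of 7 lower genes and 2 of 24 genes within 2-fold held a match. Ttn, among those 3, left the 2-fold call with median scaling, quantile normalization, cyclic loess, normexp background and averaging of a gene's probes. CAGCTG was held by 3 of 7 against 8 of 24, TATAAA by 2 of 7 against 8 of 24, the CArG box by 1 of 7 against 4 of 24 and TAATCC by 1 of 7 against 1 of 24. The 5 matches of these genes are shown in capitals, to set lower and little changed genes side by side. Srpk3 is at chrX:73774155-73774404 on the plus strand, and its match starts 67 bases upstream. Ttn is at chr2:76982548-76982797 on the minus strand (166 bases upstream). Casq2 is at chr3:102086165-102086414 on the plus strand (69 bases upstream), and Myh8 at chr11:67276874-67277123 on the plus strand (99 bases upstream). The Tecrl match starts at base 20 after the start site, so only 30 bases are shown, chr5:83355157-83355186 on the minus strand.
Srpk3: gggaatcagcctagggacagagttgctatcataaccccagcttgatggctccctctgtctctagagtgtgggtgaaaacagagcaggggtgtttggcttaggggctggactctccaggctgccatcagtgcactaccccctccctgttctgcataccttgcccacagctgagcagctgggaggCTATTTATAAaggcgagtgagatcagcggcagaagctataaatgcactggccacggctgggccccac
Tecrl: ctcaatagtgTTATATATAGaaatcagatc
Ttn: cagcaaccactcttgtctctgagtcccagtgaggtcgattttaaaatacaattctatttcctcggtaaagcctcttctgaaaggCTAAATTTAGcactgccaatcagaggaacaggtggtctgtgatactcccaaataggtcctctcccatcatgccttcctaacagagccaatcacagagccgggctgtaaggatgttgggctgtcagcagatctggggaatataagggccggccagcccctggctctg
Casq2: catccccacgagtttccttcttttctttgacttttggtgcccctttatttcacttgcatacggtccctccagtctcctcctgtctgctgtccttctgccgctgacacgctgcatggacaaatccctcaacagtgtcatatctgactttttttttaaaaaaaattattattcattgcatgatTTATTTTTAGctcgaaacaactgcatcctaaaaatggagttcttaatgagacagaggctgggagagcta
Myh8: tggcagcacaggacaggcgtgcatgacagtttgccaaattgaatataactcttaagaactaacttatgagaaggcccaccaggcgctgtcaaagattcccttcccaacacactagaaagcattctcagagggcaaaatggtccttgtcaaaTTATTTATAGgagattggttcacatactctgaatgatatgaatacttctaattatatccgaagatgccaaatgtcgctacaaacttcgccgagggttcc

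The other 4 windows shown are those of Tnnt1, Pygm, Myom1 and Apobec2, which were lower and held no MEF2 consensus match in this window. Capitals mark TATAAA in Tnnt1 (30 bases upstream), CAGCTG in Pygm (8 and 168 bases upstream) and in Apobec2 (23 bases upstream), and TAATCC (191 bases upstream) and the CArG box (99 bases upstream) in Myom1. CAGCTG lay in 42.6% of member windows against 16.3% of all windows. The CArG box lay in 14.9% against 1.63%, TATAAA in 29.8% against 13.6%, and TAATCC in 6.38% against 7.06%. Tnnt1 is at chr7:4515976-4516225 on the minus strand, Pygm at chr19:6384158-6384407 on the plus strand, Myom1 at chr17:71019307-71019556 on the plus strand and Apobec2 at chr17:48432729-48432978 on the minus strand.
Tnnt1: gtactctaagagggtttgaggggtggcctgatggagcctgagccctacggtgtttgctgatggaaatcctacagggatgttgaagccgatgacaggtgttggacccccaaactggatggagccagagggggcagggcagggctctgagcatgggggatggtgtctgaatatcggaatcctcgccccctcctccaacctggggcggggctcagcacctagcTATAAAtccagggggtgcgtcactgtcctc
Pygm: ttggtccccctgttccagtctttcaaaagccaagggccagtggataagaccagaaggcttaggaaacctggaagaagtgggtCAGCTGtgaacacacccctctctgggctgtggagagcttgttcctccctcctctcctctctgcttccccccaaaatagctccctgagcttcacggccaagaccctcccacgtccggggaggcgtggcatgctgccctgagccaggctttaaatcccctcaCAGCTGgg
Myom1: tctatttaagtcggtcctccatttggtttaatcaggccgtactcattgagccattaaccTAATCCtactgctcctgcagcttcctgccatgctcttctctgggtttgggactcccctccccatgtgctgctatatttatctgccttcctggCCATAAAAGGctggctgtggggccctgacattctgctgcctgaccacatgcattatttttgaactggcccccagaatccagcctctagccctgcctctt
Apobec2: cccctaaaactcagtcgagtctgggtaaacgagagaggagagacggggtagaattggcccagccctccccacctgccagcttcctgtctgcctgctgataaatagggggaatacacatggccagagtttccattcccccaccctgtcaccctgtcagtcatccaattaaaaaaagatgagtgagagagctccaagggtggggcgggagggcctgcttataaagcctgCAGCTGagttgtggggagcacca

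The troponin complex, which makes the thin filament sensitive to calcium, was read in full. All 8 of its genes were read on both arrays and all 8 differences were negative, with 2 past 2-fold. Over all named genes read on both, 51.3% were negative and 1.74% were 2-fold lower. At a mean level at or below -3, where Tnni1, Tnni2, Tnni3, Tnnt2 and Tnnt3 lie, 72.7% of all named genes were negative. With median scaling all 8 stayed negative, but several differences were far smaller than the scanner error. These were Tnni2 (-0.033), Tnnc2 (-0.024), Tnnt2 (-0.024) and Tnni3 (-0.00034). Tnnt2 turned positive after quantile normalization (0.0097) and cyclic loess (0.058), and Tnni2 after cyclic loess (0.022). The complex has a tropomyosin-binding subunit (TnT), an inhibitory one (TnI) and a calcium-binding one (TnC), each in slow, fast or cardiac forms.

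Tnnt1, the slow TnT gene, was the bright member of the group. Its intensity was 3487 in WT and 901 on the KO-labelled array (levels 2.11 and 0.070). The difference of -2.04 ± 0.20, or 4.11-fold lower (rank 41), hardly moved with the processing and lay between -2.06 and -1.86 in 7 scalings. Tnni1, the slow TnI gene, had levels of -3.70 and -5.15. It differed by -1.45 ± 0.31, by -1.06 with cyclic loess and by -0.59 with normexp background, which ends its call. Tnnc1, the TnC gene shared by slow muscle and heart, had levels of -2.48 and -3.01 and differed by -0.53 ± 0.21.

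The fast and cardiac troponin genes differed less, with 1 exception among the dim ones. Tnni2 and Tnnc2, the fast TnI and TnC genes, had levels of -3.38 and -2.66 in WT and differed by -0.21 ± 0.22 and -0.20 ± 0.21. The cardiac genes Tnnt2 and Tnni3 differed by -0.20 ± 0.23 and -0.18 ± 0.22. These 4 differences are no larger than the scanner error. Tnnt3, the fast TnT gene, had levels of -4.56 and -5.45 and differed by -0.89 ± 0.36, while its other probe gave -1.501 and was not read on the KO-labelled array. Averaging the probes of a gene puts Tnnt3 past 2-fold lower. With cyclic loess the Tnnt3 probes gave -0.47 and -1.09.

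Among the genes that hold the filaments in place, the myomesins parted. Myomesins crosslink thick filaments at the M-band. Myom1 had an intensity of 143 in WT and 42.2 on the KO-labelled array (levels -2.49 and -4.35), a difference of -1.85 ± 0.23 or 3.61-fold (rank 52), and of -1.03 with normexp background. Myom2 had 347 and 360 (levels -1.22 and -1.25) and differed by -0.034 ± 0.20. Myom3, a gene of the further muscle list, differed by -0.15 ± 0.21. Only Myom1 of the 3 myomesin genes was past 2-fold in the scalings compared.

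The giant filament proteins were dim. Ttn, the gene of titin, had levels of -4.55 and -5.59 by its brightest probe and differed by -1.03 ± 0.34. Its other 3 probes gave -1.18, -0.92 and -0.32, of which the first was read in WT only and the other 2 on neither array. Ttn left the 2-fold call with median scaling (-0.85), quantile normalization (-0.54), cyclic loess (-0.62) and normexp background (-0.35). Averaging the probes of a gene also took Ttn out of the call. Neb, the gene of nebulin, had levels of -4.60 and -5.53 and differed by -0.93 ± 0.35, with -1.06 by its other probe, which was not read on the KO-labelled array. The genes of the myosin-binding proteins C did not follow. Mybpc1 had levels of -3.61 and -3.60, and Mybpc2 -5.36 and -5.25.

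**Figure D2:**
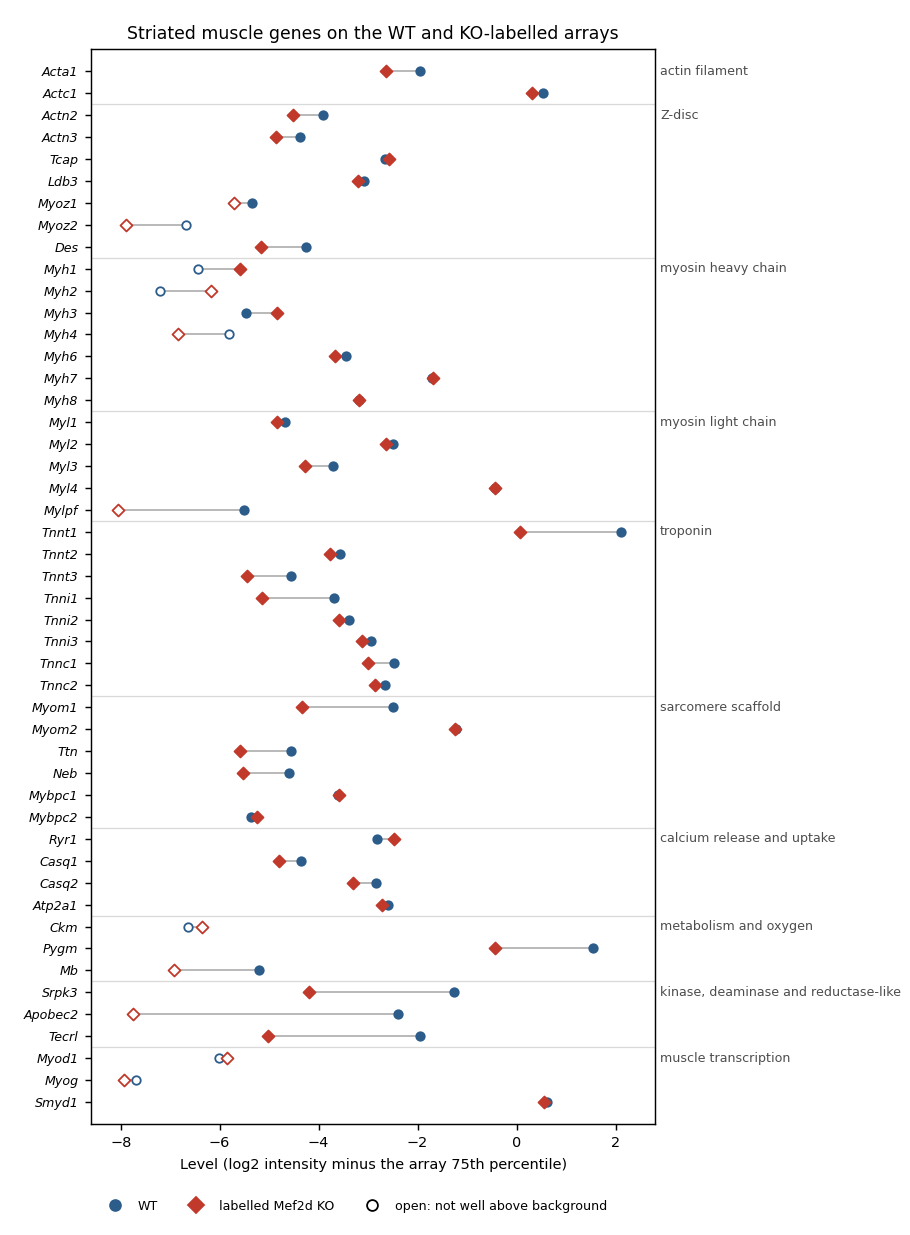
Level (log2 intensity minus the array's 75th percentile) of each of the 48 genes in WT (blue circles) and on the KO-labelled array (red diamonds), grouped by role. Open symbols were not well above background, and levels of different genes are not comparable. Long bars to the left mark Tnnt1, Pygm, Myom1, Srpk3 and Tecrl, and those of Apobec2, Mylpf and Mb end in an open symbol, while Smyd1, Myl4, Myom2 and Myh7 overlap.

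Of the metabolic genes, Pygm stood apart. It encodes the muscle form of glycogen phosphorylase, which releases glucose units from glycogen. Its intensity was 2347 in WT and 631 on the KO-labelled array (levels 1.54 and -0.44). The difference was -1.98 ± 0.20, or 3.95-fold lower (rank 45), and was -1.80 at its smallest in 7 scalings. The other phosphorylase genes, looked up after the values were seen, were Pygb, the brain form, with levels of 1.53 and 1.46, and Pygl, the liver form, with 1.48 and 0.94. They differed by -0.069 and -0.54. Ckm was not read on either array, with intensities of 8.05 in WT and 10.5 on the KO-labelled array.

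Paralogs of the other lower genes, also looked up after the values were seen, stayed within 2-fold. The kinase genes Srpk1 and Srpk2 differed by -0.055 and -0.16. Tecr, the enoyl-CoA reductase gene of very long chain fatty acid synthesis, differed by -0.054. Apobec1 and Apobec3 differed by -0.096 and -0.45. Srpk3, Tecrl, Pygm and Apobec2 were thus past 2-fold where the listed relatives were not.

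Myosin heavy chains, the motors of the thick filament, were within 2-fold by their brightest probes where read on both arrays. Myh7, the slow and cardiac form, had intensities of 246 and 264 and levels of -1.72 and -1.70. Myh8, the perinatal form, had levels of -3.19 on both arrays. Myh6, the atrial form, had levels of -3.46 and -3.66 (-0.21 ± 0.22), while its second probe gave -1.19. The embryonic form Myh3 had levels of -5.46 and -4.84 and differed by 0.62 ± 0.36, by 1.03 with cyclic loess and by 0.16 with normexp background. Myh1 had levels of -6.44 and -5.60 and was read on the KO-labelled array alone, at least 1.14-fold higher. These genes are close relatives, so a dim probe of 1 may also bind RNA of another.

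Of the 5 myosin light chain genes, 4 were read on both arrays and were within 2-fold, and Mylpf, described above, was read in WT only. Myl4, the atrial and embryonic form, had intensities of 593 and 630 and levels of -0.44 and -0.45. Myl2 had levels of -2.51 and -2.63, and Myl1 had -4.68 and -4.84. Myl3, the ventricular and slow form, had levels of -3.72 and -4.28 and differed by -0.57 ± 0.24, or -0.26 with cyclic loess.

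Both sarcomeric actin genes were read. Actc1, the cardiac form, had intensities of 1166 and 1069 (levels 0.53 and 0.32) and differed by -0.21 ± 0.20. Acta1, the skeletal form, had intensities of 209 and 138 (levels -1.95 and -2.63) and differed by -0.68 ± 0.21, between -0.70 and -0.51 in 7 scalings. Both were within 2-fold, and the difference of Acta1 was the larger.

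The Z-disc anchors the thin filaments. Of its 7 genes, 5 were read on both arrays and all 5 were within 2-fold. Tcap had levels of -2.66 and -2.59, and Ldb3 had -3.09 and -3.20. The alpha-actinin genes were dim, Actn2 with -3.91 and -4.52 and Actn3 with -4.38 and -4.86. Des, the gene of the intermediate filament desmin, has a probe in 10 copies. Its WT spots ran from -4.64 to -4.03 with a median of -4.20, and those of the KO-labelled array from -5.64 to -4.60 with a median of -5.17. The spots of the 2 arrays overlapped only between -4.64 and -4.60, and the mean difference was -0.91 with an SD of 0.22, or -0.50 with cyclic loess and -0.36 with normexp background.

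**Figure D3:**
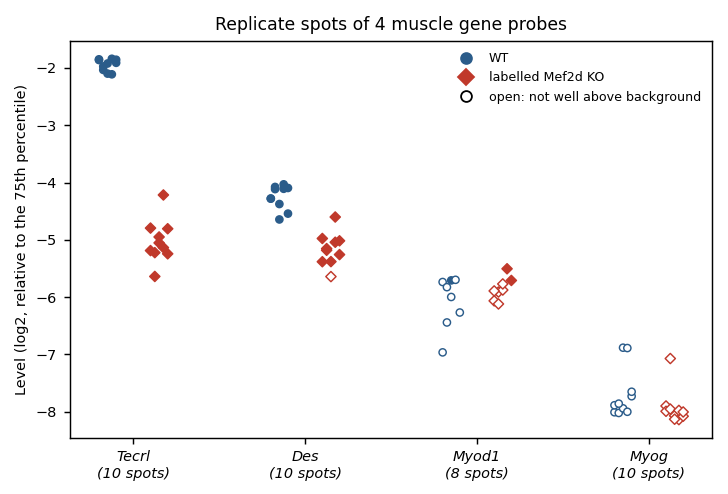
Levels (log2, relative to the 75th percentile) of the replicate spots of the Tecrl, Des, Myod1 and Myog probes on the WT (blue circles) and the KO-labelled (red diamonds) array, with open symbols for spots not well above background. The Tecrl spots of the 2 arrays do not overlap, while those of Myod1 and Myog do.

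Calcium release genes were within 2-fold. Ryr1, the skeletal calcium release channel, had levels of -2.81 and -2.47 and differed by 0.34 ± 0.21. Atp2a1, the fast-muscle calcium pump, had -2.60 and -2.73. The calsequestrin genes, whose proteins store calcium, had levels of -4.35 and -4.81 for Casq1 and of -2.84 and -3.30 for Casq2. Casq2, with its MEF2 consensus match shown above, differed by -0.46 ± 0.22, and by -0.28 with cyclic loess.

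The myogenic factor genes Myod1 and Myog were read on neither array, while Myf6, a myogenic factor gene outside the members, was read in WT only with a bound of 1.60-fold. The Myod1 probe was well above background on 1 of 8 WT spots and on 2 of 8 spots of the KO-labelled array that carried no outlier flag on either. The Myog probe was so on 0 of 10 spots of each array. Smyd1, a methyltransferase gene of heart and skeletal muscle, was read clearly, with intensities of 1238 and 1255 and levels of 0.62 and 0.55. Its difference was -0.068 ± 0.20, and -0.17 by its dim second probe.

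**Figure D4:**
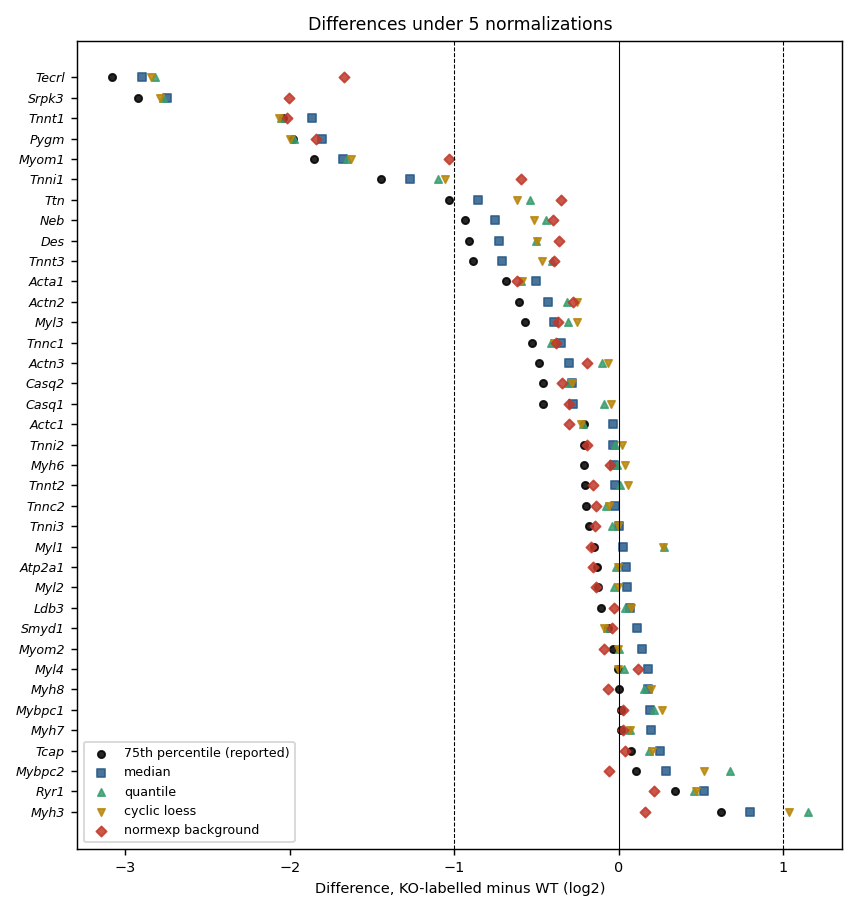
Difference (log2, KO-labelled minus WT) of the 37 genes read on both arrays under the reported 75th percentile scaling, median scaling, quantile normalization, cyclic loess and normexp background. Dashed lines mark 2-fold. Tecrl, Srpk3, Tnnt1, Pygm and Myom1 stay past 2-fold under all of them, Tnni1 and Ttn do not, and Myh3 crosses 2-fold upward with quantile normalization and cyclic loess.

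A further list of striated muscle genes, none of them a member, was also drawn up with earlier results known. Of 60 on the array, 46 (76.7%) were read in WT, against 82.9% of all named genes. Of the 39 read on both, 6 (15.4%) were 2-fold lower and 1 higher, against 1.74% and 0.618% of all named genes. Cacna1s, the muscle calcium channel pore that gates Ryr1, had levels of 0.86 and -2.45 and differed by -3.31. Hspb3, a small heat shock protein gene, had -2.70 and -5.52 and differed by -2.82, or -1.30 with normexp background. Slc2a4, the insulin-regulated glucose transporter, differed by -1.13, Pgam2, a muscle glycolytic enzyme, by -1.04, and Cox6a2, a muscle subunit of cytochrome oxidase, by -1.02. Slc2a4, Pgam2 and Cox6a2 left the 2-fold call with median scaling (-0.95, -0.87 and -0.84). They also left it with normexp background (-0.89, -0.87 and -0.70). Ampd1, the muscle AMP deaminase, differed by -1.27 but by -0.46 with normexp background.

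The gene higher by 2-fold was Ankrd2, an ankyrin repeat protein of slow muscle (1.27, or 0.93 with normexp background). Trim63, a muscle ubiquitin ligase, was lower too, by at least 3.01-fold. With normexp background its difference was -0.66, which is less than that bound. It was the 1 of 6 genes of the list read in WT only that had a bound of at least 2-fold. Over all 922 named genes read in WT only, that share was 19%. The median of the list was -0.20. With median scaling 3 of its genes were 2-fold lower, and with normexp background 2.

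Neighbouring genes on the chromosome were looked up beside the lower members. Of the 16 protein-coding genes next to the 8 lower members, counting Apobec2, all were read on both arrays and none was 2-fold lower. Over all 16187 named genes read on both arrays that share was 1.74%, so the count does not set these neighbours apart from other genes. Tnnt1 lies between Ppp1r12c (-0.014) and the member Tnni3, and Pygm between Sf1 (-0.0064) and Rasgrp2 (-0.27). Myom1 lies between Myl12a (0.073) and Lpin2 (-0.16). Lad1, next to Tnni1, was at least 2-fold higher (1.11), from a dim WT level of -5.67.

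Markers of cell types that could bring muscle RNA into a retinal sample were read beside these values. Of all 16187 named genes read on both arrays, 15805 were within 2-fold, so a marker list within 2-fold is not set apart from other genes. Of 7 extraocular muscle markers, 4 were read on both arrays and stayed within 2-fold. Chrna1 and Musk, of the nerve-muscle synapse, were read on neither, and Myh13, the extraocular myosin, was read in WT alone, at least 2.06-fold higher there. Its WT level was dim (-4.79), and with normexp background the difference was -0.28, which is less than that bound. The 7 markers include the members Myh3 and Myh8, and their summed scanner intensity was 198 in WT and 239 on the KO-labelled array. The sums of this and the following marker lists are not scaled between arrays and include probes that were not read. Since each probe binds with its own strength, they do not measure amounts of RNA of a cell type.

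Smooth muscle and pericyte markers were within 2-fold in 12 of 12 genes read on both, of 14 listed, as were 15805 of all 16187 named genes. Of the 12 differences 10 were negative, against 51.3% over all named genes. Acta2 differed by -0.36, Tagln by -0.41, Cnn1 by 0.65 and Myh11 by -0.78. Their summed scanner intensity was 9324 in WT and 8452 on the KO-labelled array. The part of muscle or vessel RNA in the member values was not tested. Connective tissue markers were within 2-fold in 9 of 9 genes read on both, of 11 listed, with a summed intensity of 4453 and 5169, while Lum and Tnmd were read on neither. Of 10 muscle progenitor markers 9 were read on both arrays, with a summed intensity of 2888 in WT and 3812 on the KO-labelled array. Pax7, a marker of muscle stem cells, was higher on the KO-labelled array by 5.51, or by 3.65 with normexp background.

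Most of the listed lens genes were lower on the KO-labelled array as well. Of 10 lens markers, 9 were read on both arrays and 7 of these were past 2-fold downward, among them Mip (-4.09) and Cryaa (-2.15). Crygd (-0.31) and Bfsp1 (0.30) were within 2-fold. Over all 16187 named genes read on both arrays, 1.74% were 2-fold lower. The summed intensity of the 10 lens markers was 138643 in WT, of which Cryaa gave 75243, and 38534 on the KO-labelled array. The part of lens RNA in the muscle gene values was not tested.

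**Figure D5:**
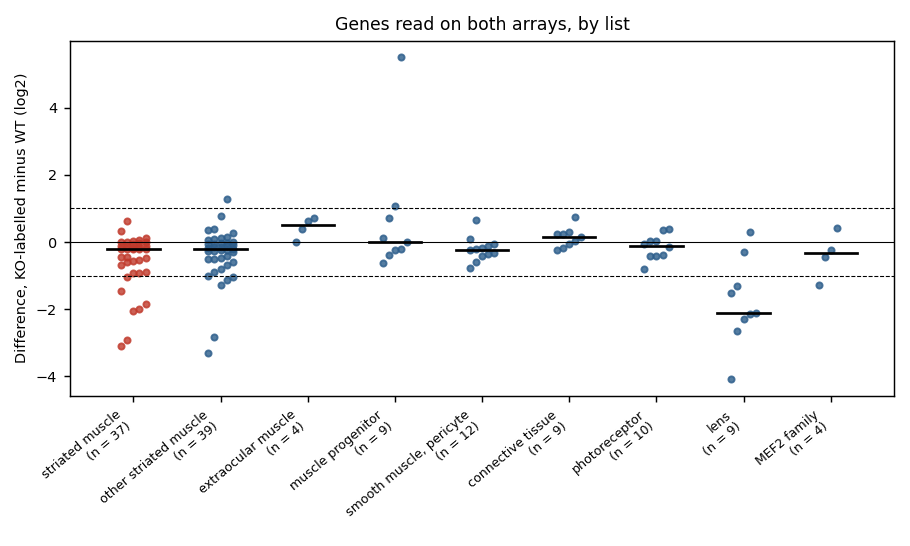
Difference (log2, KO-labelled minus WT) of genes read on both arrays, by list, with 1 point per gene, the list median as a black bar and 2-fold as dashed lines. The striated muscle lists have medians near -0.2 with a tail of lower genes, while the lens list has a median of -2.10.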

How the data were processed

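Per the file headers, the authors scanned 1-colour arrays and obtained background-subtracted intensity values from Agilent Feature Extraction 10.10.1.1, with no scaling between arrays. In the deposited series table these intensities are multiplied by a constant for each array (1.88 for WT, 1.76 for the other), linear and not centred, with column medians of 155.1 and 136.6. The basis of the constants is unknown.

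Signals were divided by the array's 75th percentile (807 and 858, over 59305 probe spots) and put on the log2 scale. Control spots and outlier spots (106 and 126) were left out, and spots of a probe were averaged. Of 55669 probes 27238 were named, through RefSeq accessions or the symbol given, with the GRCm38.p6 table. The array design names mm9, so that table gave only names and gene order, and the promoter windows are from GRCm38.p6.

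By the rule for named genes, each member read on at least 1 array is given with its values, the other members by count, the further muscle list by its genes past 2-fold, the MEF2 family in full, and marker lists by count with defining genes, of which some are not reported here. Members and lists were chosen with earlier results of these data known. Replicate spots of 432 probes gave a median SD of 0.082 for a difference (0.38 at or below a mean level of -3). The number of arrays limits precision. Myom3 and the paralogs and neighbours were named outside it. The counting was tested on simulated data. Alternatives were other scalings, normexp background (offset 50, median signals), the series table, other probe rules and other filters. Tools were R 4.3.3, limma 3.58.1, Python 3.11.15, numpy 2.4.6, pandas 2.3.3 and matplotlib 3.10.9.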

Additional observations from a re-analysis of the deposited data

How the results depend on the processing

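The count of 7 lower members was 5 to 7 under the alternative scalings, the series table and the other probe rules. Averaging a gene's probes kept 7 with Tnnt3 in place of Ttn. Over all named genes read on both arrays, the lower share ran from 0.636% with normexp background to 2.07% with averaging. The count of lower members was 3 when a mean level above -3 was required, against 0.892% of 13116 named genes. It was 12 without a filter on background. Tecrl, Srpk3, Tnnt1, Pygm and Myom1 were 2-fold lower under all scalings and backgrounds run. The count of higher members went from 0 to 1 with quantile normalization and cyclic loess (Myh3), and to 1 without the filter. With a mean level above -3 required, 15 members were read in WT, and the count lower by a bound went from 1 to 0, since Apobec2 then left the set. Median scaling moved the members' median from -0.21 to -0.033, quantile normalization to -0.078, cyclic loess to -0.061 and averaging a gene's probes to -0.46. Median scaling adds the same amount to every gene, and for the others the cause was not tested. The 6 lower genes of the further muscle list were 3 with median scaling, 2 with normexp background, 3 above a mean level of -3 and 13 without the filter. No called difference of a member changed sign. Without the filter, being read and the bound have no meaning and were not computed. No share over all named genes was computed without it either, so the counts without the filter cannot be set against other genes. No paired analysis was possible because each group has 1 array.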
